A study of Mus musculus with 9 samples.

Results

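Glycogen is the branched glucose store of the liver, and 9 genes of its synthesis and breakdown were followed in the livers of diabetic mice with and without insulin treatment: Gys2, Pygl, Gbe1, Gyg, Ugp2, Ppp1r3b, Ppp1r3c, Ppp1r3g and Phkg2. Their probes were all non-control probes whose RefSeq accession maps to one of these symbols, which gave 9 of 20972 genes named on the array and 12 of 55681 probes, with 2 probes each for Gys2, Gyg and Ugp2. All 12 probes were well above background on all 9 arrays, and all 12 were among the 26278 probes tested.

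The arrays measured total liver RNA of male mice at 20 weeks of age, with 3 mice in each of 3 groups and 1 array per mouse. STAM mice are a model of diabetes with steatohepatitis and liver tumours, made by a low dose of streptozotocin, which kills the insulin-secreting cells, followed by a high-fat diet. Whether the liver piece taken from a STAM mouse held tumour is not given in the sample titles or the study's array methods. The part of tumour tissue in the differences below was not tested. STAM-NON mice had received no treatment and STAM-INS mice had received insulin, given under the skin from 6 weeks of age per the study's methods. Normal mice had neither the STAM regimen nor insulin, so that streptozotocin and diet cannot be told apart in any comparison with them. All 6 STAM arrays lay on 1 slide and the 3 Normal arrays on another slide, so slide and group cannot be told apart in both comparisons with Normal mice, whereas STAM-INS and STAM-NON were compared within a slide.

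Glycogen synthesis begins with UDP-glucose, which is made by Ugp2. Glycogenin (Gyg) starts a chain on itself, Gys2 (the glycogen synthase of liver) lengthens it, and Gbe1 adds the branches. Pygl, the glycogen phosphorylase of liver, releases glucose phosphate from the chain ends, and it is switched on by phosphorylase kinase, whose catalytic subunit in liver is Phkg2. Ppp1r3b, Ppp1r3c and Ppp1r3g are targeting subunits that bring protein phosphatase 1 to the glycogen particle, where it activates the synthase and switches off the phosphorylase. In the fed liver, insulin favours storage.

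In STAM-INS livers Gys2 was lower than in Normal livers by 1.21 and 1.31 on the log2 scale (its 2 probes), and Ppp1r3b was lower than in Normal livers in both STAM groups, by 0.82 in STAM-NON and 0.89 in STAM-INS. Pygl was not called in any comparison. Ppp1r3c was higher in STAM-INS livers than in every other array, without passing the test. Values below are centred log2 signals: each array was shifted on the log2 scale so that its 75th percentile spot reads 0. Levels of different probes are not compared, and where Gys2 is set against Pygl within an array, only the change from the Normal mean is read. Differences are group means on this scale, and a difference was called when its adjusted p from limma was under 0.05.

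The hepatocyte markers Alb, Apoa1, Ttr, Cps1, Tat and Serpina1c were detected on all 9 arrays, as the labelled tissue requires. Their summed signal, in units of the array's 75th percentile, was 4081 to 4344 in Normal livers, against 2823 to 3731 without insulin (STAM-NON) and 3381 to 3784 with it (STAM-INS), a sum carried mainly by the bright Alb and Serpina1c probes. Of these 6 genes only Cps1 was called in the comparisons with Normal mice, lower by 0.67 in each STAM group. Ttr differed from Normal by -0.62 in STAM-NON and -0.35 in STAM-INS, Alb by -0.34 and -0.23 and Serpina1c by -0.35 and -0.29. For Ttr, Alb and Serpina1c all STAM arrays lay below all Normal arrays. Tat differed from Normal by 0.18 in STAM-NON and 0.20 in STAM-INS and Apoa1 by -0.25 and 0.20. None of these differences was called. Of the 4 genes of the macrophage list on the array, Clec4f and Ptprc, a marker of leukocytes in general, were called higher in both STAM groups than in Normal mice. Adgre1 and Csf1r were not called on any probe. The Csf1r probe A_55_P2025073 was lower by 0.38 in STAM-NON and 0.33 in STAM-INS, while the other probes of these genes had higher means. The duct marker Sox9 was also called higher in both STAM groups, Krt7 only in STAM-NON, and Krt19 in neither. None of the 5 fibroblast and stellate cell genes was called. Their means in STAM-NON were all above Normal, by 1.89 for Col1a1 (adjusted p 0.0767) and 1.22 for Col3a1 (adjusted p 0.0700). Des, Dcn and Lrat lay above it by 0.52, 0.51 and 0.20. In STAM-INS the differences from Normal were 0.98, 0.72, 0.20, -0.13 and -0.56 in the same order. No skeletal muscle, adipose or pancreas marker was detected often enough to be tested. Adipoq was well above background on 2 STAM-NON, 1 STAM-INS and 0 Normal arrays, and Plin1 on 1, 0 and 0. The summed signals depend on the scaling of the arrays and were not recomputed under other scalings. Centring on bright spike-in spots moved the median STAM-NON minus Normal difference over all probes from -0.13 to 0.18. In whole liver, fewer hepatocytes, less RNA per hepatocyte and an effect of the scaling cannot be told apart. The part of cell composition in the differences below was not tested.

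Between STAM-NON and Normal mice 2 of the 12 probes were called, both lower, beside 16.1% of all probes tested. These calls moved with the scaling of the arrays: centred on bright spike-in spots, 3 probes were called, Ppp1r3b lower and both Gyg probes higher. Groups did not overlap for 7 of the 12 probes, 5 lower and 2 higher in STAM-NON, beside 41.2% of all probes. The median difference of the 12 probes was -0.45 against -0.13 over all probes. Between STAM-INS and Normal mice 3 of the 12 probes were called, all lower, beside 13.9% of all probes, and 7 of the 12 did not overlap beside 44.1% of all probes. Here the median was -0.30 against -0.09. Between STAM-INS and STAM-NON mice 0 of the 12 probes was called by limma, beside 0.0913% of all probes (24 of 26278). At an unadjusted p under 0.05 there were 3 of the 12, both Gys2 probes and Ppp1r3c, and 2308 of all probes. These 3 were also the probes whose arrays did not overlap, beside 12.2% of all probes. The comparisons share arrays, so their counts are not independent of each other.

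**Figure D1:**
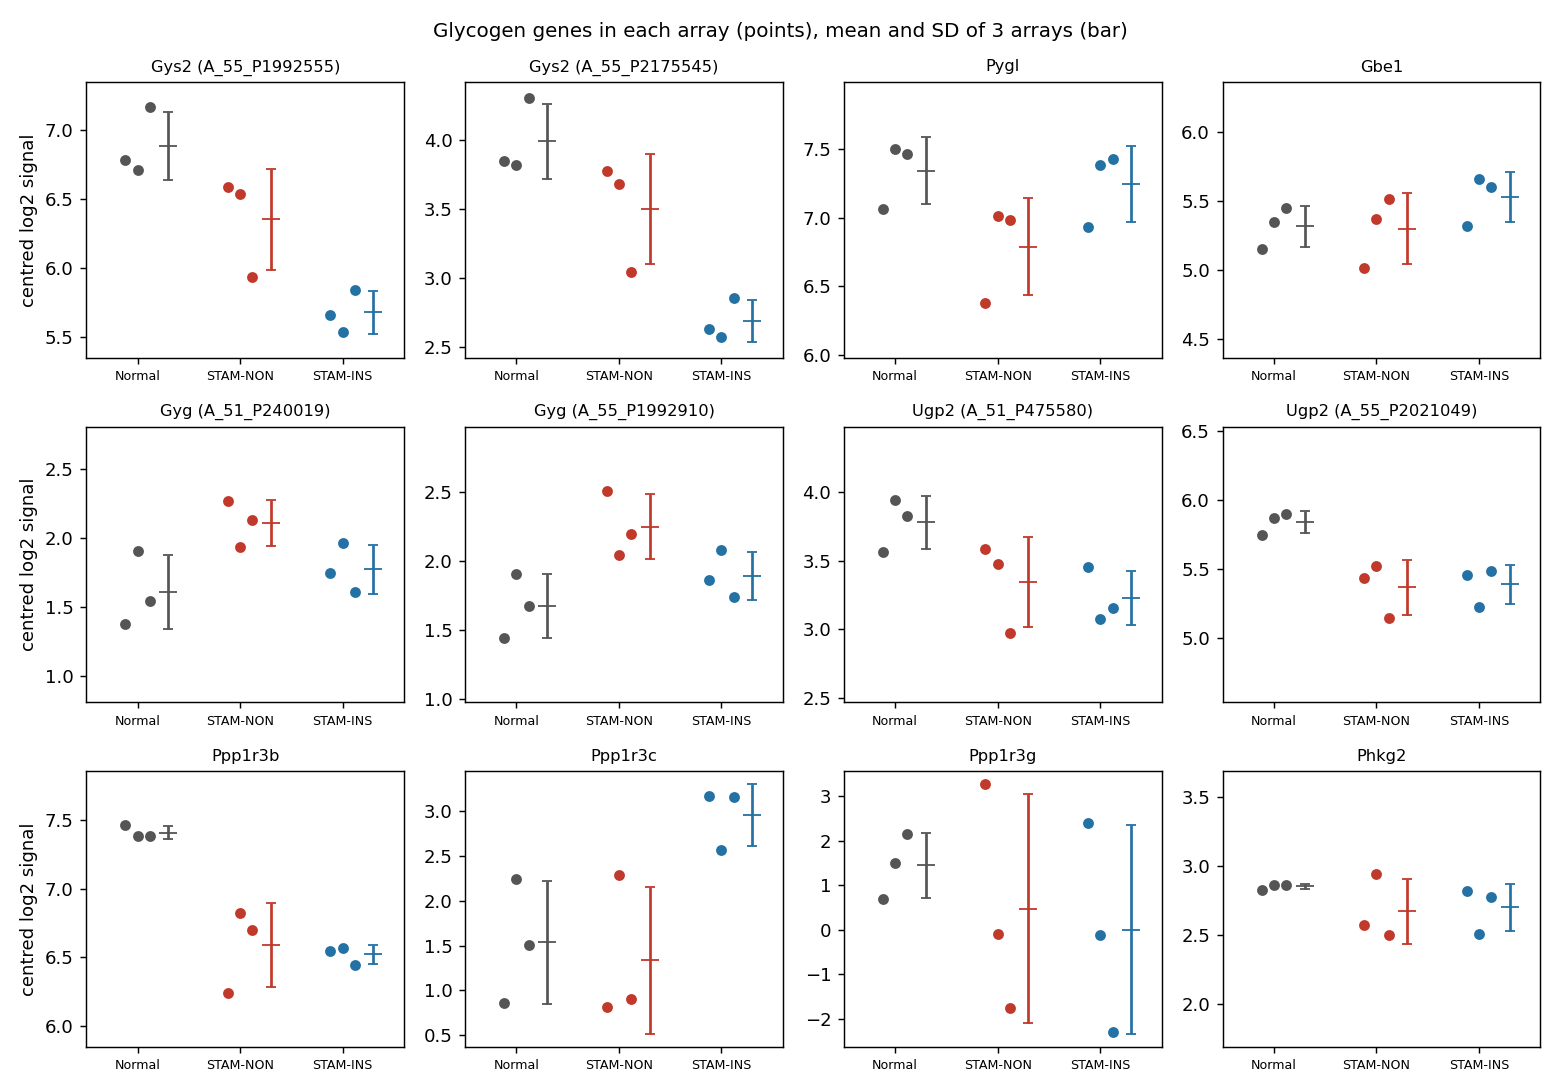
Centred log2 signal (vertical axis) of the 12 probes of the 9 glycogen genes in each of the 9 arrays. Points are arrays, and the bar beside them is the mean with the SD of 3 arrays. Gys2 is lowest in STAM-INS, Ppp1r3b sits between 7.38 and 7.46 in Normal arrays and between 6.24 and 6.82 in STAM arrays, and Ppp1r3g spreads from -2.30 to 3.28.

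Ugp2 forms the activated glucose from which glycogen is built. Its brighter probe (A_55_P2021049) read 5.44, 5.52 and 5.14 in the 3 STAM-NON arrays, 5.46, 5.22 and 5.48 in STAM-INS, and 5.75, 5.87 and 5.90 in Normal mice. All 6 STAM arrays lay below all 3 Normal arrays. The difference of STAM-NON from Normal was -0.47 (SE 0.14, adjusted p 0.0485), and that of STAM-INS was -0.45 (SE 0.14, adjusted p 0.0594). The call of the first rests on a p close to the threshold and was lost in 17 of 20 alternative settings, among them leaving out any single array other than STAM-NON replicate 2, with the difference between -0.63 and -0.16. The second probe (A_51_P475580) was not called in either comparison, at -0.43 (SE 0.19, adjusted p 0.145) and -0.55 (SE 0.19, adjusted p 0.0901), and its STAM-NON array at 3.59 overlapped the lowest Normal array at 3.57. Between the STAM groups the probes differed by 0.02 (95% interval -0.29 to 0.33) and -0.12 (-0.55 to 0.32).

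Glycogenin, Gyg, had its highest mean in STAM-NON mice. The probe A_55_P1992910 read 2.51, 2.05 and 2.20 in STAM-NON mice, 1.87, 2.08 and 1.74 in STAM-INS mice and 1.44, 1.90 and 1.67 in Normal mice. All STAM-NON arrays were above all Normal arrays, while STAM-INS arrays overlapped both groups. The difference of STAM-NON from Normal was 0.58 (SE 0.17, adjusted p 0.0536) for this probe and 0.50 (SE 0.17, adjusted p 0.0758) for A_51_P240019, neither past the threshold. The first probe was called in 5 of the 20 alternative settings, with a difference between 0.43 and 0.89, and the second in 1, between 0.35 and 0.81. STAM-INS differed from STAM-NON by -0.36 (SE 0.17, adjusted p 0.598) and -0.34 (SE 0.17, adjusted p 0.612).

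Gys2, the synthase, had the widest separation between STAM-INS and Normal mice among the members that were called. The probe A_55_P1992555 read 6.59, 6.54 and 5.93 in STAM-NON mice, 5.66, 5.54 and 5.85 in STAM-INS mice and 6.78, 6.71 and 7.17 in Normal mice. The dimmer probe A_55_P2175545 read 3.78, 3.69 and 3.04 in STAM-NON mice, 2.63, 2.57 and 2.86 in STAM-INS mice and 3.85, 3.82 and 4.31 in Normal mice. On both probes the 3 groups did not overlap, in the order Normal, STAM-NON, STAM-INS, and STAM-NON replicate 3 lay closest to the insulin-treated mice.

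For Gys2, STAM-INS differed from Normal by -1.21 (SE 0.21, adjusted p 0.0106) and -1.31 (SE 0.22, adjusted p 0.0101), a signal 2.31-fold and 2.47-fold higher in Normal livers. Neighbours in that order were not separated by the test. STAM-NON differed from Normal by -0.53 (SE 0.21, adjusted p 0.104) and -0.49 (SE 0.22, adjusted p 0.147), and STAM-INS from STAM-NON by -0.67 (SE 0.21, adjusted p 0.473) and -0.81 (SE 0.22, adjusted p 0.422). The 95% intervals of the last 2 differences, -1.15 to -0.20 and -1.32 to -0.31, lay below 0 before adjustment over all probes. The first probe lost its call between STAM-INS and Normal without STAM-INS replicate 2 (-1.14, adjusted p 0.0509), and both lost it without the filter on dim probes.

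Gbe1, the branching enzyme, was close to level in the 3 groups. It read 5.02, 5.37 and 5.52 in STAM-NON mice, 5.32, 5.66 and 5.60 in STAM-INS mice and 5.15, 5.35 and 5.45 in Normal mice, and all groups overlapped. The difference of STAM-NON from Normal was -0.02, with a 95% interval of -0.39 to 0.36, and its sign changed with the scaling of the arrays. STAM-INS differed from Normal by 0.21 (-0.17 to 0.59) and from STAM-NON by 0.23 (-0.15 to 0.60).

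On the breakdown side, Pygl was lower in STAM-NON mice than in Normal mice without passing the test. It read 6.38, 7.01 and 6.98 in STAM-NON mice, 6.93, 7.38 and 7.43 in STAM-INS mice and 7.06, 7.50 and 7.46 in Normal mice. STAM-NON arrays lay below all Normal arrays, with a difference of -0.55 (SE 0.22, adjusted p 0.116). Over the 20 alternative settings it lay between -0.70 and -0.07, and it was -0.35 without STAM-NON replicate 1. The value of -0.07 came with the slide row as a block. Only the STAM-INS arrays span both rows, so that block rests on STAM-INS replicate 1 against replicates 2 and 3. STAM-INS arrays overlapped both groups, with differences of -0.09 from Normal (95% interval -0.60 to 0.41) and 0.46 from STAM-NON (-0.05 to 0.96). Phkg2, which activates the phosphorylase, read 2.57, 2.94 and 2.50 in STAM-NON mice, 2.82, 2.51 and 2.78 in STAM-INS mice and 2.83, 2.86 and 2.87 in Normal mice. Its 3 differences were -0.18 for STAM-NON from Normal, -0.15 for STAM-INS from Normal and 0.03 between the STAM groups, and none was called.

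**Figure D2:**
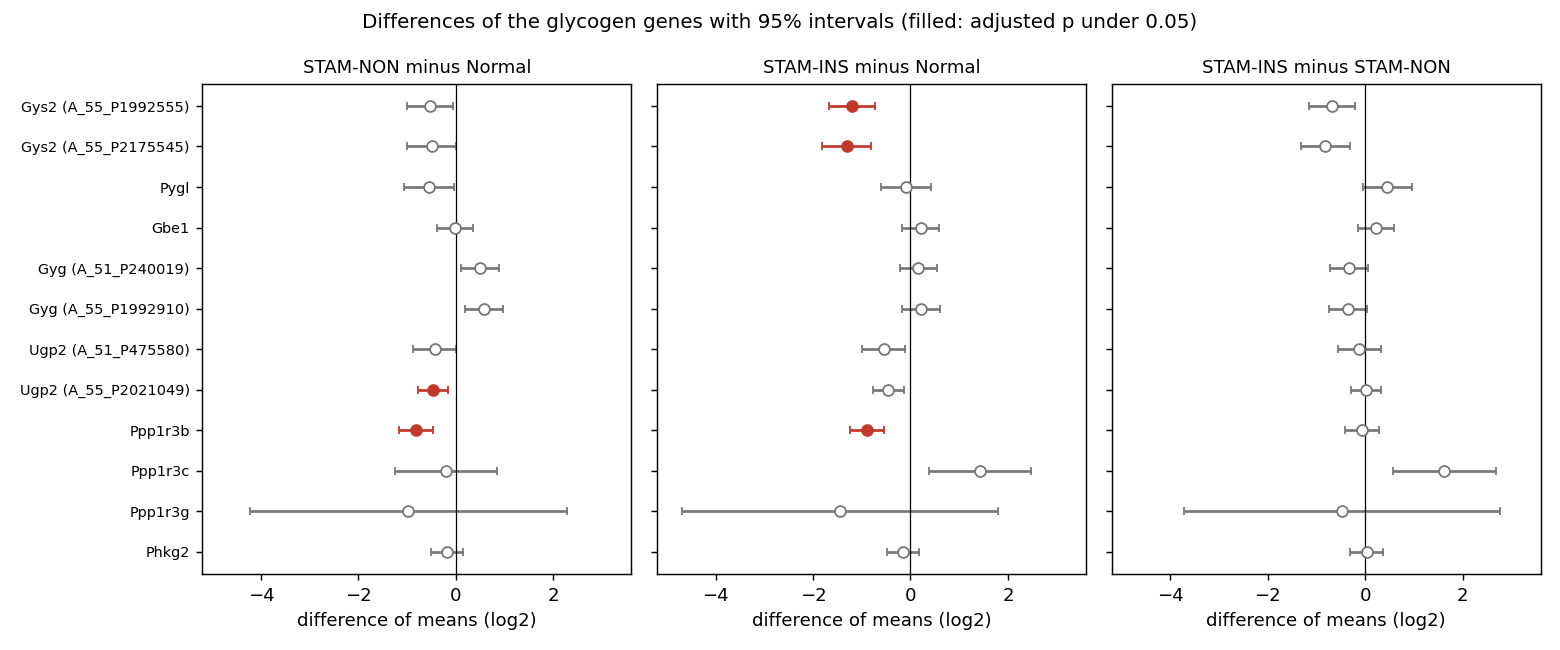
Difference of group means in log2 units (horizontal axis) with its 95% interval for each of the 12 probes, in the 3 comparisons. Filled points have an adjusted p under 0.05: Ppp1r3b and a Ugp2 probe in STAM-NON minus Normal, both Gys2 probes and Ppp1r3b in STAM-INS minus Normal, and none in STAM-INS minus STAM-NON.

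Since the scaling of an array cancels when a probe is subtracted from another probe of that array, Gys2 was also read against Pygl within each mouse. With the Normal mean set to 0, Gys2 minus Pygl for the brighter Gys2 probe was -0.82, -1.40 and -1.13 in the STAM-INS arrays and 0.18, -0.34 and 0.16 in the Normal arrays. In STAM-NON arrays it was 0.66, -0.02 and -0.60, spanning both sides of the Normal range. The means were -1.12 ± 0.29 in STAM-INS, 0.01 ± 0.63 in STAM-NON and 0 ± 0.29 in Normal mice (SD, n = 3 each). With the dimmer Gys2 probe they were -1.21 ± 0.26, 0.06 ± 0.67 and 0 ± 0.29. All STAM-INS arrays were below all arrays of the other groups on both probes. No p is given for this difference, since the pair was chosen with the values of both genes known.

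**Figure D3:**
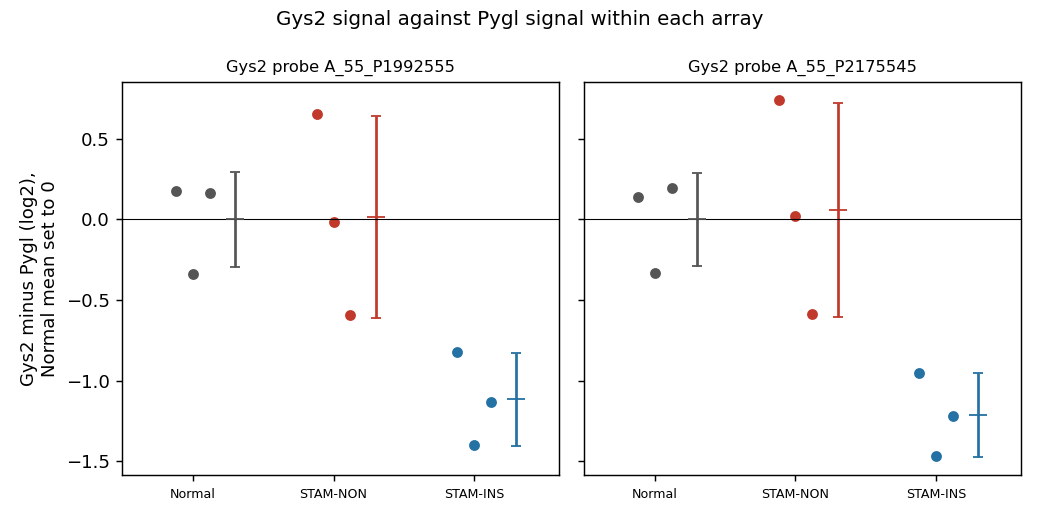
Gys2 minus Pygl in log2 units within each array (vertical axis), with the mean of the 3 Normal arrays set to 0, for each of the Gys2 probes. Points are arrays and bars are the mean with the SD. STAM-INS arrays lie between -0.82 and -1.47, and STAM-NON arrays range from -0.60 to 0.74.

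Among the phosphatase targeting subunits, Ppp1r3b (a subunit abundant in liver) was lower in both STAM groups. It read 6.24, 6.82 and 6.70 in STAM-NON mice, 6.55, 6.57 and 6.45 in STAM-INS mice and 7.46, 7.38 and 7.38 in Normal mice. All Normal arrays lay above every STAM array. The difference of STAM-NON from Normal was -0.82 (SE 0.15, adjusted p 0.0163), a signal 1.76-fold higher in Normal livers, and that of STAM-INS was -0.89 (SE 0.15, adjusted p 0.0113), 1.85-fold higher in Normal livers. The STAM groups differed by -0.07 (95% interval -0.42 to 0.28).

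For Ppp1r3b, across 20 alternative settings, the difference of STAM-NON from Normal stayed between -0.97 and -0.51, but its call was lost in 5 of them: without the filter on dim probes, with the slide row, which only the STAM-INS arrays span, as a block (-0.86, adjusted p 0.247), and without Normal replicate 1, 2 or 3 (adjusted p 0.0561, 0.0524 and 0.0551). For STAM-INS the call was lost only without the filter, among the 20 settings run, and the difference lay between -1.06 and -0.67.

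Ppp1r3c, also called protein targeting to glycogen, had its highest values in the insulin-treated mice. It read 0.81, 2.29 and 0.90 in STAM-NON mice, 3.17, 2.56 and 3.16 in STAM-INS mice and 0.86, 2.24 and 1.50 in Normal mice. The 3 STAM-INS arrays were above all other arrays, and the other groups overlapped across their whole range. STAM-INS differed from STAM-NON by 1.63 (SE 0.46, a 3.09-fold signal), with a 95% interval of 0.58 to 2.68, unadjusted p 0.00689 and adjusted p 0.451, and from Normal by 1.43 (SE 0.46, adjusted p 0.0716). The difference from Normal was called in 4 of the 20 alternative settings, and that from STAM-NON in 0 of 20. STAM-NON differed from Normal by -0.20 (SE 0.46), and the sign of that difference changed with the scaling.

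Ppp1r3g, the last of these targeting subunits, had the widest spread among mice of 1 group. It read 3.28, -0.09 and -1.76 in STAM-NON mice, 2.40, -0.12 and -2.30 in STAM-INS mice and 0.69, 1.50 and 2.15 in Normal mice. The SD was 0.73 in Normal mice, 2.57 in STAM-NON mice and 2.35 in STAM-INS mice, whereas no other member exceeded 0.83 in any group. With a standard error of 1.42, differences between groups were not detectable: -0.97 for STAM-NON from Normal (95% interval -4.22 to 2.27), -1.45 for STAM-INS from Normal (-4.70 to 1.79) and -0.48 between the STAM groups (-3.73 to 2.76). The hour of sampling and the feeding state of each mouse are not given in the sources used here.

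Genes of the circadian clock differed between the STAM groups. Of the 10 clock genes 9 were tested, and Npas2 was too dim. In STAM-INS mice 1 was called higher and 4 lower than in STAM-NON mice, beside 0.0913% of all probes called. Arntl, the clock activator also called Bmal1, read 1.24, 1.20 and 0.83 in STAM-INS, -1.90, -1.69 and -1.21 in STAM-NON and -1.97, -2.08 and -2.86 in Normal mice, a difference of 2.69 between the STAM groups (SE 0.27, adjusted p 0.0162). Dbp, an output gene of the clock, was lower in STAM-INS than in STAM-NON by 3.09 and 2.82 on its probes (adjusted p 0.00691 and 0.0210). Per3, Tef and Ciart were also lower, with differences of -3.22, -1.37 and -3.99. Clock, the partner of Arntl, differed by 0.66 without being called (adjusted p 0.329). Per1 (-1.42, adjusted p 0.480), Per2 (-1.48, adjusted p 0.101) and Nr1d1 (-0.35, adjusted p 0.867) were not called either. The summed signal of the 10 clock genes, carried mainly by the bright Dbp and Tef probes, was 46.4 to 59.8 in STAM-INS, 151 to 178 in STAM-NON and 214 to 251 in Normal arrays. The Gys2 and Ppp1r3c values of STAM-INS mice were thus measured in livers whose clock genes differed from those of the other groups, and the part of the clock or of the hour of sampling in them was not tested.

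**Figure D4:**
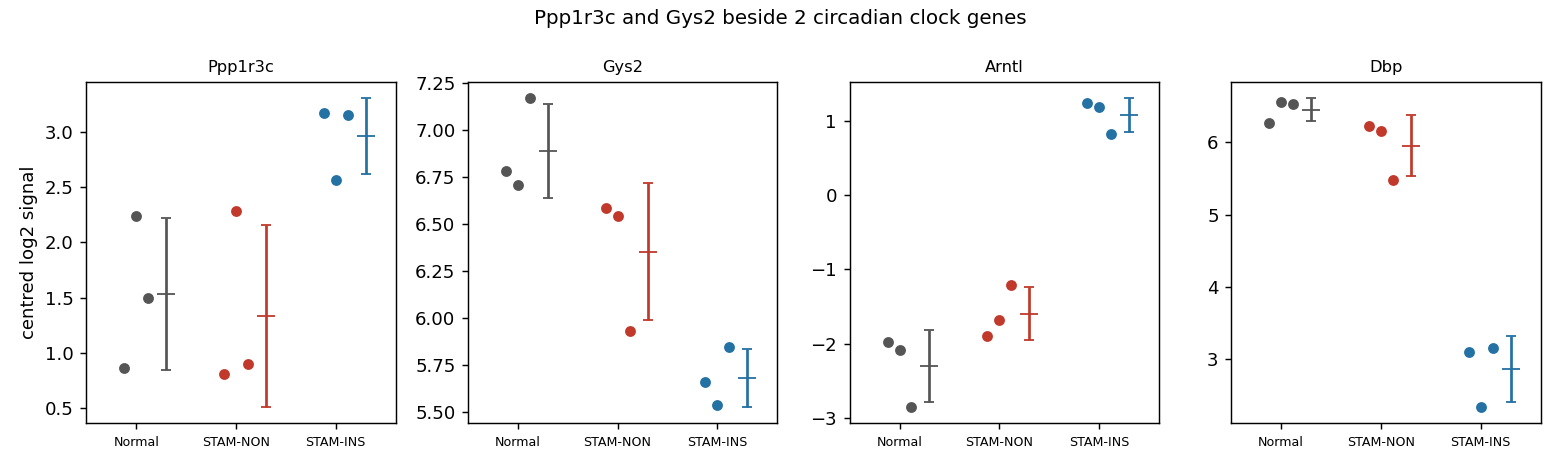
Centred log2 signal (vertical axis, its own scale in each panel) of Ppp1r3c, Gys2 (A_55_P1992555), Arntl and Dbp (A_55_P2032079) in each array. Points are arrays and bars are the mean with the SD of 3 arrays. In STAM-INS arrays Ppp1r3c (2.56 to 3.17) and Arntl (0.83 to 1.24) lie above all other arrays, and Gys2 (5.54 to 5.85) and Dbp (2.34 to 3.16) lie below all other arrays.

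Arntl binds, with its partner Clock, the E-box, spelled CACGTG. Promoter windows of RefSeq (assembly GRCm38.p6), running from 250 bases before to 50 bases after the start of a transcript, were at hand for 7 of the 9 genes in 8 windows, and not for Gys2 and Ppp1r3b. The E-box, which reads the same on both strands, stood in 2 of the 8 windows, those of Ppp1r3c and Gyg, beside 7.15% of all 32851 windows. They are shown 5′ to 3′ on the strand of the gene, with the E-box in capitals, since they are the members' windows that hold the letters Arntl binds. The Ppp1r3c window (chr19:36736555-36736854, minus strand) holds it 104 bases before the start, and the Gyg window (chr3:20155067-20155366, minus strand) holds it from base 9 after the start. A match of letters is a description of the window and no evidence of binding.
Ppp1r3c: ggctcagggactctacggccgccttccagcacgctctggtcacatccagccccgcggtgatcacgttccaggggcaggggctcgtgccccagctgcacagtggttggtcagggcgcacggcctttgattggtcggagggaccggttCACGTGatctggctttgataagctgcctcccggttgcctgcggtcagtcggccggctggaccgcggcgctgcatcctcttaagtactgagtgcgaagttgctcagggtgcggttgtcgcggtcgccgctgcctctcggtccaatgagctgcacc
Gyg: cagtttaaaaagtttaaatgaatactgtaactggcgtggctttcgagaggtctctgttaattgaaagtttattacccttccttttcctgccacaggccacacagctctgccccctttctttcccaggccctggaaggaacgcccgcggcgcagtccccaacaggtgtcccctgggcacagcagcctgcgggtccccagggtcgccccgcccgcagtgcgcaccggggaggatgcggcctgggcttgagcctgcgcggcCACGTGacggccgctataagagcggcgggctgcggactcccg

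Genes with the most similar pattern over the 9 arrays were sought for the members with a call, by the root mean square difference after the mean of each probe was taken off, among 13385 genes. For both Gys2 probes the nearest gene was Ppargc1b, a coactivator of mitochondrial and lipid genes, at 0.14 on the log2 scale, and the spread of Gys2 itself was 0.54 and 0.59. Arsa and Nhlrc2 followed for the first probe, both at 0.15, and Nhlrc2 (0.18) and Zbed5 (0.20) for the second. For Ppp1r3b, with a spread of 0.43, the nearest was Klf9, a transcription factor induced by glucocorticoids, at 0.062, followed by Armcx3 (0.078) and Tmem161a (0.085). For the called Ugp2 probe, with a spread of 0.25, Ak3 (0.050), Ndufb10 (0.051) and Mtarc2 (0.056) were nearest. The points share the arrays and their scaling.

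A list of 27 other genes of glycogen and glucose phosphate handling gave 31 tested probes of 23 genes. Between STAM-NON and Normal mice 3 of these 31 probes were called, beside 16.1% of all probes, a count below that share. All 3 were higher, beside 6.30% of all probes that were called higher and 9.76% called lower, and the median difference was -0.08 beside -0.13 over all probes. In both comparisons of STAM-INS mice 0 of 31 were called by limma, beside 0.0913% of all probes against STAM-NON and 13.9% against Normal. At an unadjusted p under 0.05 there were 2 of 31 (6.45%) against STAM-NON beside 8.78% of all probes, and 9 of 31 (29.0%) against Normal beside 32.5%.

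The 3 called probes belong to Gys1 and Pygb, the synthase of muscle and the phosphorylase of brain. Gys1 (A_55_P2026315) read -1.95, -2.13 and -1.90 in STAM-NON mice, -2.48, -2.32 and -2.44 in STAM-INS mice and -2.56, -2.90 and -3.23 in Normal mice, a difference of 0.90 between STAM-NON and Normal (SE 0.17, adjusted p 0.0166). The other Gys1 probe gave 0.91 (SE 0.23, adjusted p 0.0357). Pygb read -0.04, -1.41 and 0.80 in STAM-NON mice, -0.81, 0.03 and -0.83 in STAM-INS mice and -1.98, -2.28 and -2.04 in Normal mice, a difference of 1.88 (SE 0.50, adjusted p 0.0390). All STAM-NON arrays were above all Normal arrays for both genes. Their STAM-INS values lay above Normal by 0.48 and 0.71 for Gys1 and 1.56 for Pygb without passing the test. The call of Gys1 was kept in 15 of 20 alternative settings for the first probe and in 7 for the other, and that of Pygb in 8. The sizes moved with the background correction of these dim probes. With normexp the Gys1 differences were 0.26 (adjusted p 0.0806) and 0.51, and that of Pygb was 1.26.

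**Figure D5:**
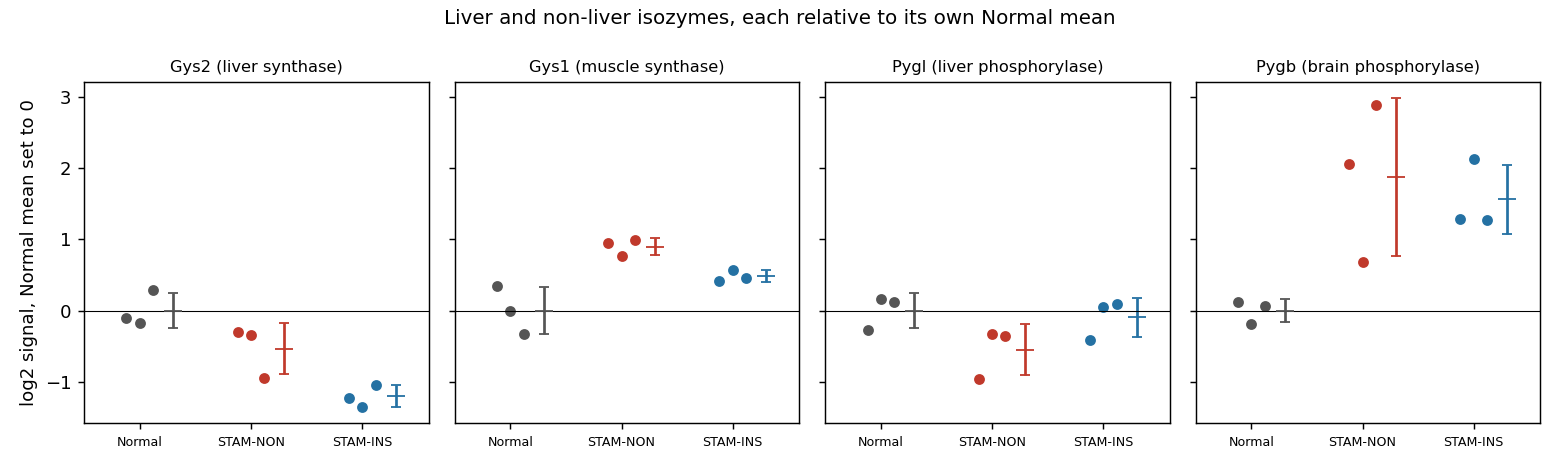
Log2 signal relative to the Normal mean of each probe (vertical axis) for the synthases Gys2 and Gys1 (A_55_P2026315) and the phosphorylases Pygl and Pygb in each array. Points are arrays and bars are the mean with the SD of 3 arrays. Means in STAM-NON are -0.53 for Gys2 and -0.55 for Pygl, neither called, against 0.90 for Gys1 and 1.88 for Pygb, both called.

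Around the store, G6pc, which releases free glucose, differed from Normal by 0.19 (SE 0.43) in STAM-NON and 0.61 (SE 0.43) in STAM-INS, and was not called. The phosphoglucomutases Pgm1 and Pgm2 gave -0.29 (adjusted p 0.0753) and 0.76 (adjusted p 0.178) in STAM-NON against Normal, and were not called in any comparison. Ppp1r3a, Ppp1r3e, Ppp1r3f and Epm2a were not well above background often enough to be tested.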

How the data were processed

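The intensity values deposited by the authors are the scanner output of Agilent Feature Extraction 11.5.1.1 (per the labels), on a linear scale after background subtraction and not normalised between arrays. The study's methods name no array normalisation or test. Control spots and spots with outlier flags were left out and spots of a probe averaged. Log2 signals were centred on the 75th percentile of the non-control spots of each array. Probes were tested where at least 0.5 of their spots were well above background on all 3 arrays of at least 1 group. The tests used limma (version 3.58.1, under R 4.3.3; lmFit, eBayes, two-sided, 6 residual degrees of freedom), with Benjamini-Hochberg adjustment over 26278 probes. Accessions were named through a RefSeq table of GRCm38.p6, whereas the array design used mm9, so no probe or gene coordinates are given and promoter windows carry those of the RefSeq table. No outlier flag fell on a probe of the 9 genes.

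The genes and gene lists were chosen with earlier results of these data known. Named were all 9 genes, preset genes of the wider list with any that passed the threshold (some are not reported here), Arntl and Dbp, and for each called gene the 3 most similar genes. Cell type markers came from a written list. Alternatives changed the background correction (normexp, with an offset of 50, on the median signal, since the files used hold no mean signal), scaling, filter, arrays, moderation and blocks, and left out each array. Centring on bright spike-in spots (245 of 350) was added after the data had been seen. The code was tested on simulated data. With 3 arrays per group, their number limits the precision. The labels name the RNA kit of one maker and the study's methods that of another for the arrays.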

Additional observations from a re-analysis of the deposited data

Results flagged for a closer look

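Phkg1, a catalytic subunit of phosphorylase kinase outside liver, has a probe (A_51_P280890) that was left out of the tests for dim signal, although 2 STAM arrays, both STAM-NON, of 6 and 0 of the 3 Normal arrays had it well above background. Its other probe (A_55_P2056483) was tested and not called, with 0.19 for STAM-NON against Normal (SE 0.25, adjusted p 0.602). Ppp1r3f, a phosphatase targeting subunit, was likewise left out and was well above background on 1 STAM array, also STAM-NON, and on 0 Normal arrays. No difference was tested for these probes of low signal, A_51_P280890 and that of Ppp1r3f.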

How the results depend on the processing

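Of the 12 probes, 2 were called between STAM-NON and Normal mice, both lower. There were 3 with normexp or a variance trend, each adding Gyg as higher, 3 with bright spike-ins (Ppp1r3b lower, both Gyg probes higher) and 2 with detected probes (Ppp1r3b lower, a Gyg probe higher). There was 1 with quantile normalisation, median centring, centring on all spike-in spots or only the arrays of both groups, 0 without the filter on dim probes and 0 with the slide row as a block, and 0 to 3 when single arrays were left out. Between STAM-INS and Normal mice 3 were called, against 5 with normexp, 5 with only the arrays of both groups, 0 without the filter, and 2 to 5 when single arrays were left out. Between the STAM groups 0 were called in every setting run. Between arrays of the same replicate number the correlation of deviations was -0.29 to 0.15, which cannot settle whether those mice were paired. With the replicate block the counts were 2, 0 and 3. No count of the 12 probes changed with it, although Pygl in STAM-NON against Normal then passed (adjusted p 0.0428). The wider list's 3 calls in STAM-NON against Normal ranged from 0 to 5 and its 0 in STAM-INS against Normal reached 2.

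Among 900 recomputed differences of 15 probes, 780 kept their direction and their side of the threshold, 56 lost the threshold, 20 passed it and 44 changed sign. All sign changes were of differences that were not called. In STAM-NON against Normal, Gbe1 became 0.20 (normexp), 0.24 (quantile), 0.15 (detected probes), 0.14 (spike-ins), 0.30 (bright spike-ins) and 0.29 (slide row). With bright spike-ins Ppp1r3c became 0.11 and Phkg2 0.13. Leaving out single arrays gave -0.12 to 0.13 for Gbe1, -0.68 to 0.15 for Ppp1r3c and -2.38 to 0.15 for Ppp1r3g. In STAM-INS against STAM-NON, the Ugp2 probe A_55_P2021049 became -0.033 (quantile), -0.022 (detected), -0.12 (spike-ins) and -0.13 (bright spike-ins), and Phkg2 -0.0082, -0.012, -0.11 and -0.12. The slide row block gave 1.92 for Ppp1r3g and 0.11 for the other Ugp2 probe. Leaving out single arrays gave -1.68 to 0.92 for Ppp1r3g, -0.30 to 0.0058 for Ugp2 A_51_P475580, -0.090 to 0.10 for Ugp2 A_55_P2021049, -0.056 to 0.17 for Phkg2, -0.24 to 0.049 for Ppp1r3b and -0.91 to 0.19 for Pygb. In STAM-INS against Normal, Pygl became 0.13 (quantile), 0.030 (detected), 0.070 (bright spike-ins) and 0.066 (slide row), and -0.23 to 0.066 when single arrays were left out. Gyg A_51_P240019 became -0.0065 with median centring and Phkg2 0.011 with bright spike-ins.

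Over all probes, 1655 were higher and 2565 lower in STAM-NON than in Normal mice, against 1536 and 1425 (quantile), 2093 and 1061 (detected), 1571 and 718 (spike-ins), 2737 and 458 (bright spike-ins), 1313 and 3387 (normexp), 991 and 1025 (replicate block), 156 and 94 (no filter) and 9 and 6 (slide row block), and the median difference moved from -0.13 to between -0.29 and 0.18. For STAM-INS against Normal, 1355 and 2292 became 1675 and 1300 (detected), 937 and 1190 (spike-ins), 1492 and 714 (bright spike-ins), 801 and 2111 (median), 249 and 323 (no filter). The 24 calls between the STAM groups ranged from 6 with the replicate block to 105 without STAM-NON replicate 3. The cause of these changes was not tested. All member probes were well above background on every array.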
